A study of Caenorhabditis elegans with 154 samples.

Results

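The comparison described here is the lowest step of a density series: *C. elegans* L1 larvae that arrested at 5 eggs/μL against larvae that arrested at 1 egg/μL. Single animals were sequenced, and all animals of the 4 groups at these densities were taken, 71 of the 154 animals in the series: 22 *fog-2* and 22 N2 animals at 5 eggs/μL, and 14 *fog-2* and 13 N2 animals at 1 egg/μL. N2 is the laboratory wild type. The *fog-2* animals carry the *q71* allele, with which XX animals make no sperm, so this strain is kept by crossing males with these females. In every group the mothers had been fed, the eggs were freed by bleaching, and the embryos of mixed stages hatched in M9 buffer with polyethylene glycol and no food. Larvae were collected 22 hr later, per the methods of the study, so that all compared animals were starved. By design the groups differed in the density of the eggs and in strain, and the N2 series repeated one first made in *fog-2*. The name digits described below were also spread unevenly between groups.

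In the absence of food, newly hatched *C. elegans* larvae stop development as L1s and can live for weeks. Reduced insulin signaling and the transcription factor DAF-16/FoxO maintain the arrest, and larvae respond to compounds released by their neighbors, among them the ascaroside pheromones. The genes with the largest changes below belong to a few families. The *nspe* genes (nematode-specific peptide family, group e) encode short peptides and the *lips* genes encode lipase-related proteins, and several members of both families lie next to each other on chromosome II. Small heat shock proteins bind unfolded proteins under stress, collagens and hedgehog-related proteins contribute to the cuticle and molting, and ribosomal proteins make up the translation machinery.

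Levels are tpm (transcript abundance relative to the whole library), which sum to 1000000 in every animal, so they are shares of the messages of an animal and do not show how many reads stand behind a value. Fold changes are differences of log2(tpm + 1), which understates the change of weakly expressed genes. Fewer cells of a type and less RNA per cell cannot be told apart in whole animals. The labels do not say whether animals of a group came from separate cultures, so that p-values describe the spread of these animals and nothing wider. The digit that follows the density in the name of an animal is 1, 2 or 3, and its meaning is not given in the labels. The 3 digits were spread evenly at 5 eggs/μL, with 8, 7 and 7 animals in each strain. At 1 egg/μL they were not, with 3, 5 and 6 *fog-2* animals and 1, 4 and 8 N2 animals. For this reason, values within a digit, or without one, are given beside the main results.

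As a check of the animals, at least 1 tpm was found for 11825 ± 2240 transcript rows in *fog-2* at 5 eggs/μL (mean ± SD, n = 22) and for 11191 ± 1772 rows at 1 egg/μL (n = 14). In N2 the numbers were 10525 ± 1396 (n = 22) and 9983 ± 1056 (n = 13). Neither difference passed the test (two-sided permutation test with 100000 resamples, p = 0.381 and p = 0.231, adjusted p = 0.381 for both). Markers of body wall muscle were abundant in every animal, with a summed level of 4507 tpm or more in *fog-2* and 14540 tpm or more in N2. Of the fixed marker lists, 0 of 12 rows for oocytes and early embryos, 0 of 13 for primordial germ cells, 0 of 12 for the excretory cell, 0 of 13 for the intestine, 0 of 15 for muscle, 0 of 11 for the pharynx and 0 of 15 for neurons passed the limma test described below. Without adjustment, 2, 0, 0, 3, 2, 1 and 1 of these rows were under p = 0.05, against 1768 of all 14887 rows tested. Of the intestinal markers 12 of 13 had a negative difference (median -0.15, and -0.36 with quantile normalization). Of the 13 hypodermal markers 1 row passed, that of *wrt-10*, 4 were under p = 0.05 without adjustment, all of them higher, and 10 had a positive difference (median 0.29). 1 animal stood apart from its group, a *fog-2* animal at 5 eggs/μL, and without it 162 rows were higher and 49 lower in place of the 158 and 55 given next.

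A transcript row was tested where 13 or more of the 71 animals had 1 tpm or more of it. Some rows near 0 at 1 egg/μL reached this only with the animals at 5 eggs/μL. Rows of *irg-2*, *wrt-10*, *col-121*, *dpy-2*, *dpy-10*, *mlt-8*, *noah-2*, *hch-1*, *dsl-3* and *clec-196* are examples, and their calls as higher are descriptions. Of the 14887 rows tested, 158 rows (1.06%) were higher at 5 than at 1 egg/μL and 55 rows (0.369%) were lower (limma with strain as a covariate, Benjamini-Hochberg adjusted p under 0.05). These 213 rows come from 211 genes, and the sign was the same in *fog-2* and in N2 for all 213, which the joint fit favors. The median of all rows was itself shifted to 0.14 on the log2 scale, and 9533 of 14887 rows had a positive difference. Quantile normalization moved that median to -0.003 and gave 97 rows higher and 62 lower, so that the share of calls that were higher went from 74.2% to 61.0%. The rises were large, with log2 fold changes of 0.61 to 3.10 (median 1.58). Their median mean level was 22.1 tpm, against 10.7 tpm over all tested rows. The falls came in 2 kinds: a few genes fell strongly, to a log2 fold change of -3.87, whereas most fell little (median of all 55 -0.66) and were abundant, with a median mean level of 774 tpm.

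**Figure D1:**
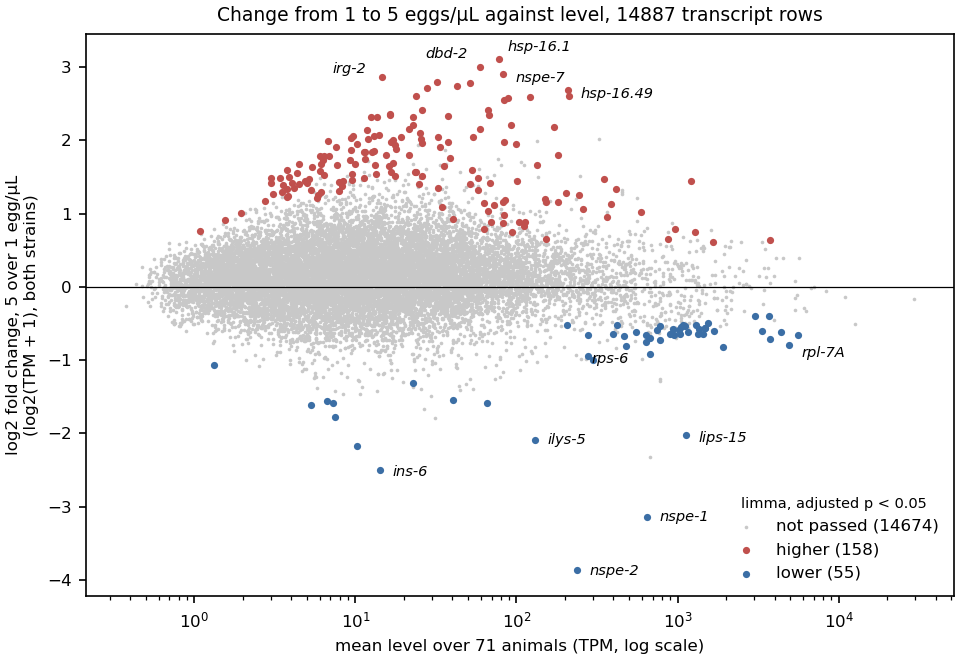
Log2 fold change from 1 to 5 eggs/μL (y axis, log2(TPM + 1), both strains together) against the mean level over the 71 animals (x axis, TPM, log scale), 1 point per transcript row, with rows at an adjusted p under 0.05 in red (158 higher) and blue (55 lower). The higher rows spread over low and middle levels, while the lower rows form a dense group at high levels and a few strongly lower genes such as *nspe-1*, *nspe-2* and *lips-15*.

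Taken within strains, *fog-2* alone gave 50 rows higher (0.336%) and 8 lower (0.0537%). N2 alone gave 0 rows (0%) in either direction by the same limma test, with 990 rows at an unadjusted p under 0.05 and the smallest adjusted p, 0.0504, for *nspe-1*. The strains were not shown to differ: 0 rows (0%) passed the interaction test in limma, with 655 at an unadjusted p under 0.05. The name digits weighed heavily on these counts. Without the animals of digit 1, 22 rows were higher and 17 lower, without digit 2, 100 and 21, and without digit 3, 47 and 8. With the digit within strain as a block, 156 rows were higher and 34 lower. The called rows, higher and lower, were selected on these same animals, which favors the same sign within digits. Within single digits the 158 higher rows had a positive difference for 149, 157 and 154 rows in *fog-2*. In N2 the numbers were 147, 123 and 155, with the smallest median difference, 0.55 on the log2 scale, in animals of digit 2. The 55 lower rows had a negative difference for 54, 54 and 55 rows in *fog-2* and for 25, 54 and 55 rows in N2, where the exception, digit 1, had 1 animal at 1 egg/μL. Of the 45 genes named by rule that passed the test, 7 also passed without each digit in turn: *nspe-1*, *nspe-2*, *hsp-16.1*, *hsp-16.11*, *hsp-16.49*, *irg-2* and *numr-1*. The row of *irg-2* entered the test only with the animals at the higher density, so its place among these 7 is a description.

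The strongest falls lay in the gene cluster on chromosome II. The gene *nspe-1* (II:12620649-12620864 of WBcel235, minus strand) was at 325 to 1959 tpm (median 931.5) in *fog-2* at 1 egg/μL and at 2.39 to 500 tpm (median 188) at 5 eggs/μL. In N2 it went from 354 to 4497 tpm (median 1135) to 0 to 1205 tpm (median 181). The groups overlapped little, with 18 of 22 *fog-2* and 16 of 22 N2 animals at 5 eggs/μL below every animal of their strain at 1 egg/μL. The log2 fold change was -3.14 (SE 0.40, adjusted p = 3.61e-07), an 8.80-fold lower level. The fall was found within each digit, from medians of 929, 582 and 1345 tpm to 260, 44.7 and 181 tpm in *fog-2* and from 473, 1025 and 1747 tpm to 55.5, 170 and 549 tpm in N2.

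Its neighbor *nspe-2* (II:12619173-12619388, minus strand) fell further, with a log2 fold change of -3.87 (SE 0.57, adjusted p = 6.04e-06, 14.6-fold lower). In *fog-2* its level was 61.5 to 662 tpm (median 291) at 1 egg/μL and 0 to 195 tpm (median 36.1) at 5 eggs/μL. In N2 it was 29.1 to 1501 tpm (median 453) and 0 to 768.5 tpm (median 60). All 27 animals at 1 egg/μL had some *nspe-2*, whereas 5 *fog-2* and 6 N2 animals at 5 eggs/μL were listed at 0. The N2 groups overlapped more than those of *fog-2*, with 9 of 22 and 15 of 22 animals at 5 eggs/μL below every animal at 1 egg/μL.

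The lipase-related gene *lips-15* (II:12604386-12607027, plus strand) was at 309 to 3206 tpm (median 1120) in *fog-2* at 1 egg/μL and at 0 to 2642 tpm (median 264.5) at 5 eggs/μL. In N2 the range was 208 to 5366 tpm (median 2370) and then 2.2 to 2192 tpm (median 620). Its log2 fold change was -2.03 (SE 0.45, adjusted p = 0.00486), the ranges overlapped widely, and the call was lost without digit 1 (adjusted p = 0.112) and without digit 3 (adjusted p = 0.173). The pseudogene *lips-16* (II:12610313-12612357, minus strand) fell by 2.17 on the log2 scale (SE 0.43, adjusted p = 0.00117), from a median of 19.7 tpm to 0 in *fog-2*. In N2 its median was 0 at both densities, with highest values of 56.0 and 33.5 tpm, and the difference between strains did not pass (interaction adjusted p = 0.996). The gene *Y38E10A.17*, further along the stretch (II:12632581-12634799, minus strand), fell by 1.06 (SE 0.25, adjusted p = 0.01) from medians of 1.16 tpm or less to medians of 0.

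The stretch did not move as a block. In its middle, *nspe-7* (II:12627187-12627570, plus strand) rose by 2.91 on the log2 scale (SE 0.54, adjusted p = 4.49e-04). It went from 0 to 78.6 tpm (median 6.25) to 0 to 406 tpm (median 83.5) in *fog-2* and from 0 to 252.5 tpm (median 11.1) to 0 to 402 tpm (median 58.1) in N2. In *fog-2* 12 of 22 animals at 5 eggs/μL were above every animal at 1 egg/μL, and in N2 2 of 22 were. Without digit 1 it did not pass (adjusted p = 0.103). The other genes there did not pass: the log2 difference was -1.15 for *nspe-3* (adjusted p = 0.0983), -0.96 for *nspe-6* (adjusted p = 0.638), 0.33 for *nspe-4* (adjusted p = 0.888) and 0.09 for *nspe-5* (adjusted p = 0.970). For *Y38E10A.8* it was -0.34 (adjusted p = 0.775) and for *Y38E10A.14* 1.66 (adjusted p = 0.0586). Of the 7 *nspe* rows tested, then, 1 rose and 2 fell, and of the 19 lipase rows 0 rose and 2 fell.

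Away from this stretch, the strongest fall was that of *ins-6* (II:6000436-6001009, plus strand), an insulin-like peptide made by sensory neurons that promotes exit from dauer arrest. At 1 egg/μL 3 of 14 *fog-2* animals and 3 of 13 N2 animals were listed at 0 for it, against 14 of 22 and 16 of 22 at 5 eggs/μL. Its median went from 18.9 tpm (highest animal 81.2) to 0 (highest 50.7) in *fog-2* and from 22.2 tpm (highest 73.4) to 0 (highest 26.3) in N2. The log2 fold change was -2.50 (SE 0.49, adjusted p = 0.00116, 5.65-fold lower), and without digits 1, 2 and 3 the adjusted p was 0.0544, 0.00345 and 0.175. Among the insulin-like peptides only *ins-6* passed: 0 of 23 rows rose and 1 fell, with a median of -0.002 and 4 rows at an unadjusted p under 0.05. Of 10 rows of insulin receptor signaling genes and 7 of the dauer TGF-beta pathway 0 passed the limma test, with 4 and 1 at an unadjusted p under 0.05. Over all 14887 rows tested, 1768 were under that value.

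**Figure D2:**
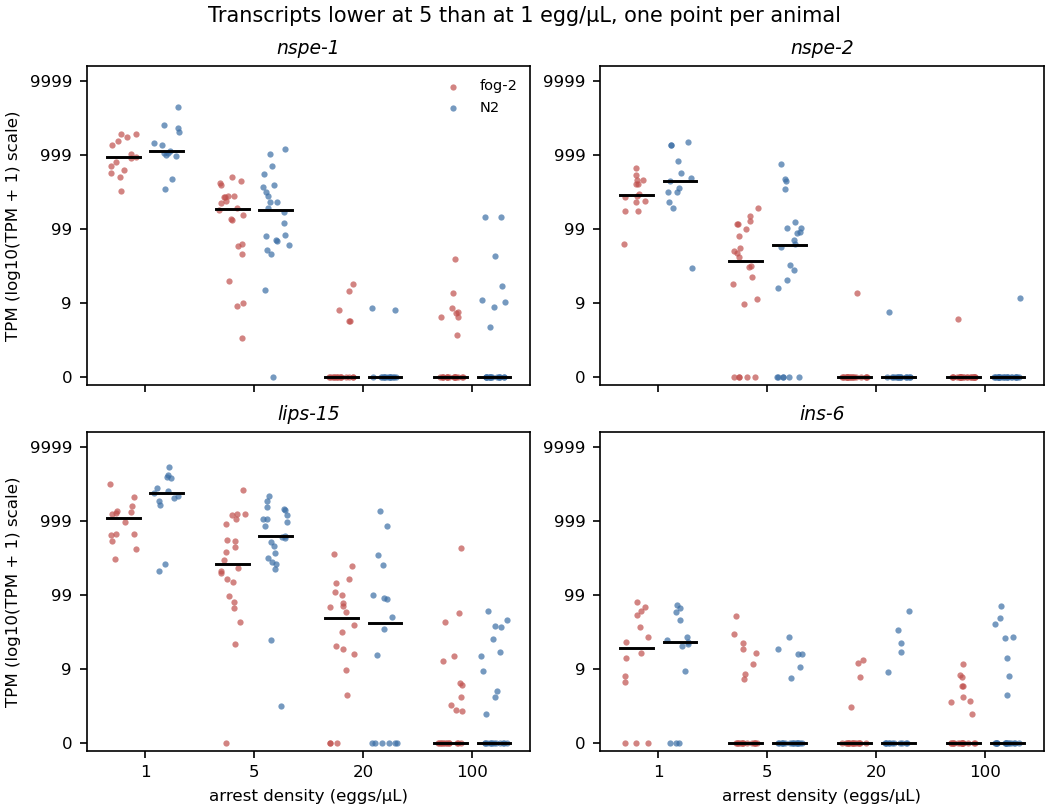
Level in TPM of *nspe-1*, *nspe-2*, *lips-15* and *ins-6* in every animal (1 point per animal, log10(TPM + 1) scale) at 1, 5, 20 and 100 eggs/μL, *fog-2* and N2 apart, with the median of each group as a bar. The 5 eggs/μL animals sit mostly below those at 1 egg/μL, and *nspe-1* and *nspe-2* have medians of 0 at 20 and 100 eggs/μL, while *ins-6* already has a median of 0 at 5 eggs/μL.

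Ribosomal protein messages were lower in a broad and shallow way. Of 69 rows for cytosolic ribosomal proteins (63 genes), 0 rose and 23 fell, 68 had a negative difference, and the median was -0.50 against 0.14 over all rows. The median kept its sign with quantile normalization (-0.48) and within *fog-2* (-0.70) and N2 (-0.31), whereas the number of rows that fell was 4, 4 and 0 without digits 1, 2 and 3, and 10 with the digit as a block. All 90 rows named as ribosomal proteins, a group chosen after the values were seen, gave 30 lower rows and a median of -0.51. The summed level of the 69 rows was 45360 to 149000 tpm (median 90020) in *fog-2* at 1 egg/μL and 21170 to 111700 tpm (median 52980) at 5 eggs/μL. In N2 the sums overlapped almost fully, at 57800 to 160200 tpm (median 81060) and 35330 to 162300 tpm (median 75880). By digit, the median sum was lower at 5 eggs/μL in both strains except in N2 digit 1. There the 1 animal at 1 egg/μL was at 57800 tpm and the median at 5 eggs/μL was 80900 tpm.

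The small-subunit protein gene *rps-6*, whose product is phosphorylated downstream of growth signals in many animals, was at 463 to 1586 tpm (median 818) in *fog-2* at 1 egg/μL and 173 to 1088 tpm (median 446) at 5 eggs/μL. In N2 it was at 453 to 1439 tpm (median 756) and then 236 to 951 tpm (median 474). It fell by 0.75 on the log2 scale (SE 0.15, adjusted p = 0.00149), and the medians were lower at 5 eggs/μL within every digit of both strains. Without digits 1, 2 and 3 its adjusted p in limma was 0.0621, 0.0193 and 0.158. The genes *rps-2* and *rpl-4* fell by 0.65 (SE 0.14, adjusted p = 0.00373) and 0.64 (SE 0.14, adjusted p = 0.00468). In N2 digit 1, *rps-2* and *rpl-4* were at 964 and 992.5 tpm in the 1 animal at 1 egg/μL. Their medians there were 1170 and 1042 tpm at 5 eggs/μL. In every other digit of both strains their medians were lower at 5 eggs/μL. Of 44 translation factor rows 0 rose and 1 fell, *eef-1B.1* (a subunit of the exchange factor for elongation factor 1), by 0.62 (SE 0.12, adjusted p = 0.00116), from medians of 4685 and 4752 tpm to 3106 and 3682 tpm in *fog-2* and N2. Outside these lists, the nucleoside diphosphate kinase *ndk-1* fell by 0.66 (adjusted p = 0.00174), the ribosome-associated scaffold *rack-1* by 0.56 (adjusted p = 0.0152) and *tct-1*, the translationally controlled tumor protein, by 0.40 (adjusted p = 0.0392), 3 genes chosen after their values were seen.

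Further lower genes were found in lists of which most rows did not pass. The invertebrate-type lysozyme gene *ilys-5* fell by 2.08 on the log2 scale (SE 0.58, adjusted p = 0.0417), from medians of 134 and 151 tpm in *fog-2* and N2 to 46.9 and 38.0 tpm, and 0 of 11 lysozyme rows rose. With the digit as a block it did not pass (adjusted p = 0.141). Of the C-type lectin rows 2 rose, 3 fell and 99 did not pass. The lectin gene *clec-85* was at 151 to 953 tpm (median 292) in *fog-2* and 120 to 1051 tpm (median 422) in N2 at 1 egg/μL. At 5 eggs/μL it was at 54.8 to 611 tpm (median 152) and 97.7 to 455.5 tpm (median 230), a log2 fold change of -1.0 (SE 0.19, adjusted p = 7.50e-04). The fall of *Y54G2A.49*, which overlaps *clec-85* on the other strand, is uncertain because the library kit does not mark strand. The other 2 lectin genes that fell were *clec-246* (-1.78, adjusted p = 0.0137) and *clec-67* (-1.54, adjusted p = 0.0467), and the hedgehog-related gene *grd-5* fell by 1.59 (adjusted p = 0.0268). With the block, *clec-67* (adjusted p = 0.126) and *grd-5* (adjusted p = 0.074) did not pass.

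Small heat shock protein genes were among those that rose, and the largest rise of all was that of *hsp-16.1*. The gene *hsp-16.1* (V:9087293-9087782) was at 0 to 96.6 tpm (median 8.84) in *fog-2* at 1 egg/μL and at 6.74 to 570 tpm (median 97.0) at 5 eggs/μL. In N2 it was lower throughout, at 0 to 24.2 tpm (median 3.04) and 0 to 243 tpm (median 19.3). Its log2 fold change was 3.10 (SE 0.44, adjusted p = 2.40e-06, 8.60-fold higher), with 11 of 22 *fog-2* and 10 of 22 N2 animals at 5 eggs/μL above every animal at 1 egg/μL. The rise was present within each digit, from medians of 49.3, 26.7 and 4.42 tpm to 332, 86.3 and 71.4 tpm in *fog-2* and from 0, 0 and 4.42 tpm to 54.6, 14.9 and 18.8 tpm in N2.

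The related genes *hsp-16.11*, *hsp-16.48* and *hsp-16.49* rose by 2.58 (SE 0.42, adjusted p = 8.87e-05), 2.6 (SE 0.44, adjusted p = 1.42e-04) and 2.69 (SE 0.45, adjusted p = 1.27e-04) on the log2 scale, and *hsp-16.41* by 2.1 (adjusted p = 0.00500). Because *hsp-16.1* and *hsp-16.11*, and *hsp-16.48* and *hsp-16.49*, are near-identical copies, the split of reads within each pair is uncertain. Further small heat shock protein genes, *hsp-12.1* and *hsp-12.3*, rose by 1.79 (adjusted p = 0.00825) and 1.47 (adjusted p = 0.0400). The cytosolic chaperone *hsp-1* did not pass, with a difference of 0.01 (adjusted p = 0.992), nor did the endoplasmic reticulum chaperone *hsp-4* (0.90, adjusted p = 0.354) or the small heat shock gene *hsp-43* (-0.02). In all, 7 of 21 rows of small heat shock and chaperone genes rose and 0 fell (median 0.47), with 6 higher under quantile normalization and 3, 6 and 4 without digits 1, 2 and 3.

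Other stress genes rose as well. The HSP70-family gene *F44E5.4*, whose copy *F44E5.5* cannot be told apart with certainty, went from 5.63 to 36.7 tpm (median 10.1) to 11.8 to 276 tpm (median 70.8) in *fog-2* and from 0 to 162 tpm (median 9.18) to 0 to 349 tpm (median 53.3) in N2. The log2 fold change was 2.35 (SE 0.42, adjusted p = 2.48e-04). The gene *irg-2*, named for its response to infection, was listed at 0 in most animals at 1 egg/μL, with highest values of 10.1 tpm in *fog-2* and 3.99 tpm in N2. At 5 eggs/μL its median was 23.9 tpm (highest 163) in *fog-2* and 4.62 tpm (highest 25) in N2, and 16 and 12 of 22 animals were above every animal at 1 egg/μL. Its log2 fold change was 2.87 (SE 0.39, adjusted p = 7.58e-07, 7.29-fold higher). The metal-responsive gene *numr-1*, a near copy of *numr-2*, rose by 2.78 (SE 0.49, adjusted p = 2.10e-04), from a median of 9.87 tpm (highest 38.9) to 58.0 tpm (highest 437) in *fog-2* and from 0 (highest 75.9) to 34.5 tpm (highest 200) in N2. Of 19 rows of genes activated by DAF-16, a list that includes *hsp-16* and *hsp-12* genes, 5 rose and 0 fell (median 0.79). Its members *sod-3* (superoxide dismutase, 0.95, adjusted p = 0.374) and *mtl-1* (metallothionein, 0.61, adjusted p = 0.102) did not pass.

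Genes of the cuticle rose in part. Of 100 collagen rows 8 rose and 1 fell (*col-144*, by 0.94, adjusted p = 0.0307), but the median over the list was 0.09 and -0.01 with quantile normalization, and 10 rose and 0 fell with the digit as a block. Those that rose were *dpy-17*, *dpy-14*, *sqt-3*, *dpy-10*, *dpy-2*, *col-74*, *col-121* and *col-14*, of which the *dpy* and *sqt* genes set body shape. The gene *dpy-17* was at 0 to 35.9 tpm (median 2.73) in *fog-2* and 0 to 31.8 tpm (median 8.28) in N2 at 1 egg/μL. At 5 eggs/μL it was at 2.15 to 114.6 tpm (median 33.3) and 0 to 396 tpm (median 24.3), a log2 fold change of 2.33 (SE 0.43, adjusted p = 4.13e-04). The more abundant *sqt-3* went from medians of 50.5 and 48.5 tpm in *fog-2* and N2 to 142 and 104.6 tpm, with highest animals of 181 and 189 tpm at 1 egg/μL and 497 and 1301 tpm at 5 eggs/μL (1.8, SE 0.39, adjusted p = 0.00419).

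The cuticlins *cut-3* and *cut-2* rose by 2.31 (adjusted p = 7.94e-04) and 1.65 (adjusted p = 0.0330). Of 12 molting rows 2 rose, *mlt-8* (1.55, adjusted p = 0.0108) and *noah-2* (1.52, adjusted p = 0.0226), and 0 fell. Both rows entered the test only with the animals at 5 eggs/μL, so this count is a description. Of 25 hedgehog-related rows 3 rose (*wrt-10*, *grl-21* and *grl-7*) and 1 fell. The hedgehog-related gene *wrt-10* was at 0 to 6.43 tpm (median 0) in *fog-2* and 0 to 37.8 tpm (median 0) in N2 at 1 egg/μL. At 5 eggs/μL it was at 0 to 42.9 tpm (median 13.5) and 0 to 298 tpm (median 16.6), a log2 fold change of 2.6 (SE 0.50, adjusted p = 7.55e-04). The gene *grl-7*, also of this family, was listed at 0 in all 27 animals at 1 egg/μL and had medians of 1.49 and 2.04 tpm, with highest animals of 18.2 and 67 tpm, at 5 eggs/μL. It entered the test only through the animals at 5 eggs/μL, so its count among the rows that rose is a description. The metalloprotease gene *hch-1*, required for normal hatching from the eggshell and chosen after its values were seen, rose by 1.95 (SE 0.44, adjusted p = 0.00646). Its row, too, entered the test only with the animals at 5 eggs/μL, so its call is a description.

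These rises were uneven between name digits. Without the animals of digit 1, 0 of 100 collagen rows, 0 of 12 molting rows and 0 of 25 hedgehog-related rows passed the limma test, against 3 of 21 chaperone rows. Over all 14887 rows, 22 were then higher and 17 lower, so counts of 0 do not by themselves set these lists apart. Without digit 2 the rows that rose were 8, 2 and 3, without digit 3 they were 5, 0 and 0, and with the digit as a block 10, 2 and 3. In N2 at 5 eggs/μL the median of *dpy-17* was 104.4 tpm in digit 1, 5.79 tpm in digit 2 and 22.1 tpm in digit 3, and that of *wrt-10* was 137, 0 and 14.1 tpm. In *fog-2* the same medians were 62.7, 29.8 and 36 tpm for *dpy-17* and 7.57, 5.23 and 15.4 tpm for *wrt-10*. At 1 egg/μL no digit of either strain had a median above 13.8 tpm for *dpy-17* or 6.11 tpm for *wrt-10*. Digit 1 holds 1 N2 and 3 *fog-2* animals at 1 egg/μL.

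**Figure D3:**
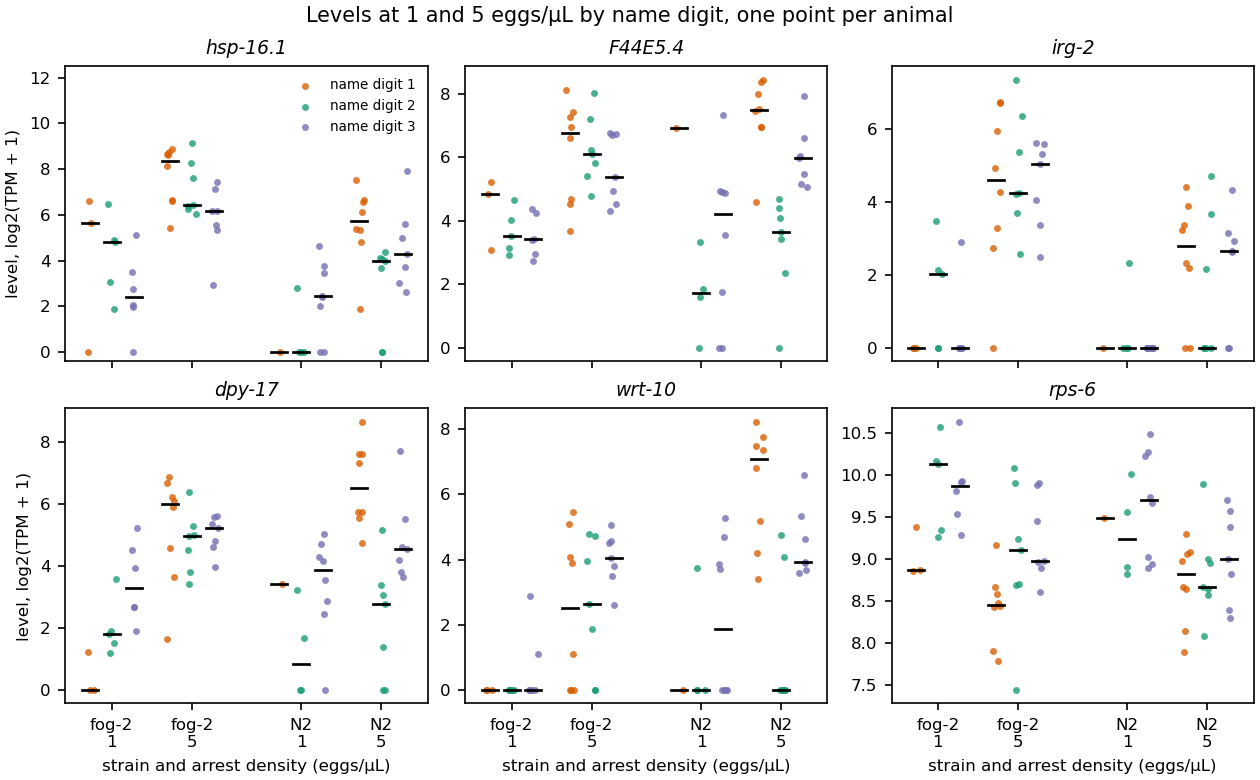
Level as log2(TPM + 1) of *hsp-16.1*, *F44E5.4*, *irg-2*, *dpy-17*, *wrt-10* and *rps-6* in every animal at 1 and 5 eggs/μL, grouped by strain and by the digit in the name of the animal, with bars at the medians. The *hsp-16.1* medians are higher at 5 eggs/μL in every digit, while *wrt-10* in N2 ranges from a median of 137 TPM in digit 1 to 0 in digit 2, and *rps-6* medians are lower at 5 eggs/μL in every digit.

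Several genes outside these families rose as strongly. By size they included *dbd-2* (3.00, adjusted p = 2.10e-04), *T19B10.2* (2.79, adjusted p = 1.57e-04), *cav-1*, which encodes caveolin (2.73, adjusted p = 1.42e-04), *dbd-13* (2.72, adjusted p = 1.25e-04) and *ttr-50* (2.6, adjusted p = 3.65e-04). For *cav-1* the median went from 0.55 tpm (highest 15.0) to 9.57 tpm (highest 102) in *fog-2* and from 3.66 tpm (highest 67.8) to 36.7 tpm (highest 566) in N2. Here too the N2 animals of digit 1 were highest, with medians at 5 eggs/μL of 218, 14.8 and 25.4 tpm in digits 1, 2 and 3. Of genes chosen after their values were seen, the asparagine synthetase *asns-2* rose by 2.55 (SE 0.49, adjusted p = 7.50e-04). Its medians went from 7.83 to 36.9 tpm in *fog-2* and from 24.5 to 88.3 tpm in N2, but in N2 digit 2 they were 30.2 tpm at 1 egg/μL and 13 tpm at 5 eggs/μL. Also chosen so, the Notch ligand-like *dsl-3* rose by 2.34 (adjusted p = 0.00236), the heme-responsive *hrg-2* by 2.21 (adjusted p = 5.94e-04) and the ornithine decarboxylase *odc-1*, of polyamine synthesis, by 2.08 (adjusted p = 1.81e-04). The row of *dsl-3* entered the test only with the animals at 5 eggs/μL, so its call is a description.

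In the families that modify foreign compounds few rows passed, against 1.06% higher and a median of 0.14 over all rows. Of 63 cytochrome P450 rows 2 rose (*cyp-13A10* and *cyp-34A9*) and 0 fell, with 46 positive and a median of 0.35. Of 44 glutathione S-transferase rows 2 rose (*gst-41* and *gst-1*) and 0 fell (median 0.20), and of 54 UDP-glucuronosyltransferase rows 1 rose (*ugt-29*) and 0 fell (median 0.16, and 0.03 with quantile normalization). Without digit 1 or without digit 3, 0 cytochrome P450 and 0 UDP-glucuronosyltransferase rows passed in limma. Over all 14887 rows, 22 and 47 were then higher and 17 and 8 lower. The gene *gst-1* was at 23.8 to 205 tpm (median 64.5) in *fog-2* and 13.9 to 210 tpm (median 130) in N2 at 1 egg/μL. At 5 eggs/μL it was at 8.46 to 263 tpm (median 139.5) and 110 to 924 tpm (median 267), a log2 fold change of 1.15 (SE 0.23, adjusted p = 0.00168), and its medians were higher in every digit. Of 48 rows of transthyretin-related genes, a nematode family of secreted proteins, 4 rose and 0 fell, and 46 were positive (median 0.43, and 0.37 with quantile normalization), while without digit 1 0 passed.

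The mitochondrial genome also gave positive differences throughout. All 16 rows of the mitochondrial DNA, chosen after the values were seen, had a positive difference (median 0.64, and 0.62 with quantile normalization), and 1 of them passed, that of WBGene00010967 (*MTCE.35*, 1.15, adjusted p = 0.0214). Their summed level was 4227 to 33380 tpm (median 12680) in *fog-2* at 1 egg/μL and 5627 to 46970 tpm (median 17310) at 5 eggs/μL. In N2 it was 162 to 2946 tpm (median 1160) and 312 to 8489 tpm (median 1473), so the groups overlapped in both strains. Of 47 rows of nuclear genes for the respiratory chain 0 passed in limma, with 3 at an unadjusted p under 0.05 and a median of -0.11.

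Of the other lists, 0 rows passed the limma test for 100 neuropeptide, 213 nuclear hormone receptor, 10 ascaroside synthesis, 15 fatty acid desaturase and elongase, 26 methionine cycle and phosphatidylcholine, 18 glycolysis, 20 glyoxylate and gluconeogenesis, 33 proteasome, 31 autophagy, 11 hypoxia response, 6 carbonic anhydrase and 21 G protein alpha rows. Unadjusted p-values under 0.05 were found for 7, 17, 2, 1, 6, 1, 1, 2, 9, 2, 1 and 1 of them, against 1768 of all 14887 rows tested. The ascaroside synthesis genes, which make the pheromones, had 9 of 10 differences positive (median 0.45).

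**Figure D4:**
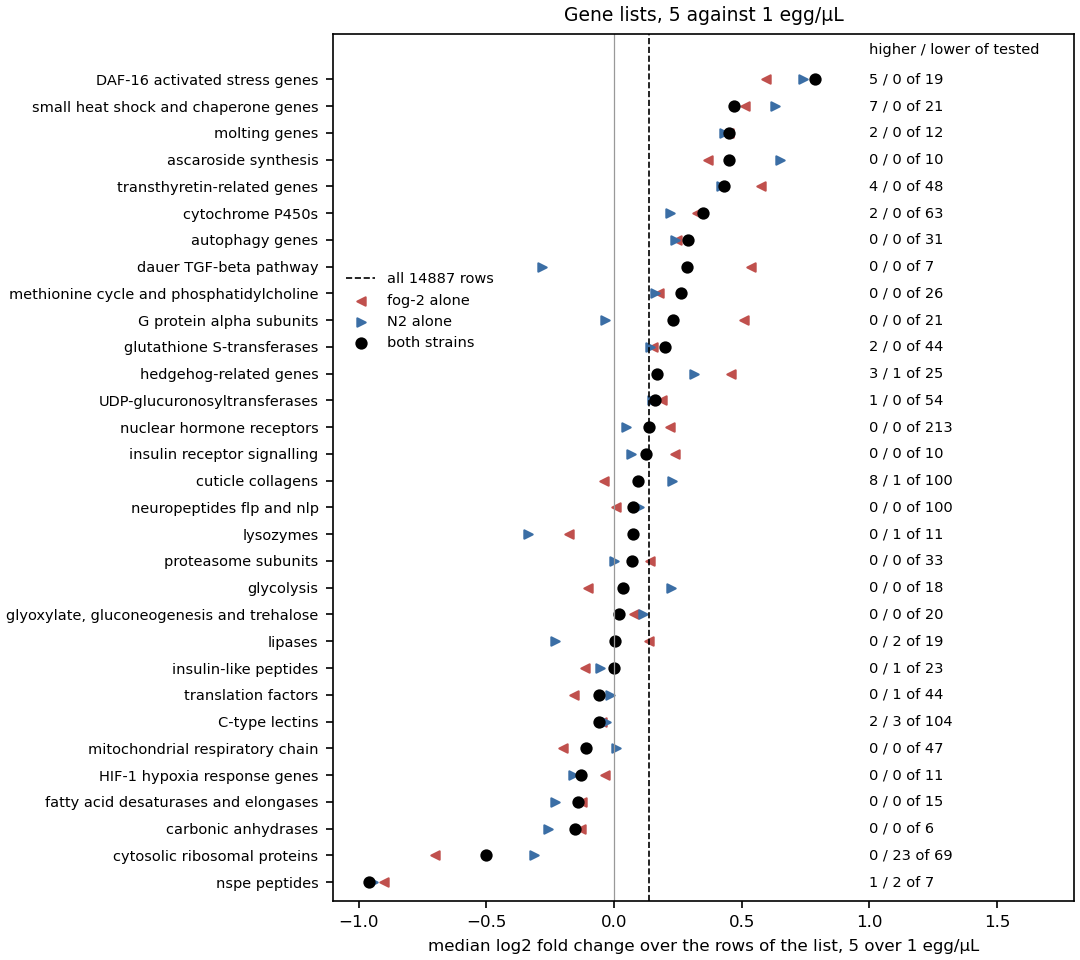
Median log2 fold change from 1 to 5 eggs/μL over the rows of each gene list (x axis, log2(TPM + 1) scale), for both strains together (black), *fog-2* alone (red) and N2 alone (blue), with the number of rows higher and lower at an adjusted p under 0.05 at the right. The dashed line is the median of all 14887 rows, 0.14, and ribosomal proteins lie at -0.50 with 23 of 69 rows lower while chaperones lie at 0.47 with 7 of 21 higher.

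The genes that the text of the study describes as repressed at high density were followed over this first step. They were selected on these samples, so their direction is not independent evidence. The cytochrome P450 gene of that text matched no row by its name and is not among the 16 rows below. All 16 rows had a negative difference, with a median of -0.48, and 4 passed: *lips-15*, *lips-16*, *nspe-1* and *nspe-2*. The other 12 did not, among them *ins-26* (an insulin-like peptide, -1.26, adjusted p = 0.284), *daf-5* (a Sno/Ski regulator of dauer formation, -0.52, adjusted p = 0.307) and *sgk-1* (a kinase of the insulin pathway, -0.90, adjusted p = 0.156). With quantile normalization *sgk-1* passed (adjusted p = 0.0417). For genes of methyl group and lipid metabolism the differences were -0.36 for *sams-1* (adjusted p = 0.609), -0.35 for *ahcy-1* (adjusted p = 0.297), and -0.20 and -0.13 for the 2 rows of *fat-2* (adjusted p = 0.650 and 0.844).

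The change from 1 to 5 eggs/μL minus that from 5 to 100 eggs/μL was tested as a signed contrast, over all animals at these densities. A positive contrast can be a rise followed by a fall, or a smaller fall followed by a larger one. Its sign therefore does not rank the sizes of the steps. The contrast was positive for 77 rows (0.517%) and negative for 5 (0.0336%). Both changes share the animals at 5 eggs/μL, which the error of the contrast takes into account. For genes picked by their first step, however, the contrast is not independent of that choice. The larger step, from 5 to 100 eggs/μL, had 163 rows higher (1.09%) and 165 lower (1.11%).

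For the lower genes the steps compared as follows. *lips-15* changed by -2.03 and then by -6.61 on the log2 scale, and its contrast of 4.59 passed (adjusted p = 8.69e-05). *nspe-1* changed by -3.14 and then -5.64 (contrast 2.50, adjusted p = 0.0784), and *nspe-2* by -3.87 and then -4.46 (contrast 0.59, adjusted p = 0.877), so that their steps were not shown to differ. For *ins-6* the change was -2.50 and then -0.05, but this contrast did not pass either (-2.45, adjusted p = 0.146). A different pattern was that of *R11D1.3*, which did not pass in the first step (-0.04, adjusted p = 0.974) and changed by -6.91 after it. Its medians at 1, 5, 20 and 100 eggs/μL were 352, 434, 32.9 and 0 tpm in *fog-2* and 199, 143, 56.2 and 0 tpm in N2, and the contrast was 6.87 (SE 0.58, adjusted p = 8.11e-18). The gene *pud-1.1*, which shares its sequence with *pud-1.2* and is uncertain for that reason, changed by -0.52 (adjusted p = 0.843) and then -6.01 (contrast 5.49, adjusted p = 4.39e-04).

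Some genes that rose in the first step had lower levels again at the higher densities. Medians of *nspe-7* at 1, 5, 20 and 100 eggs/μL were 6.25, 83.5, 12.9 and 7.01 tpm in *fog-2* and 11.1, 58.1, 2.02 and 0 tpm in N2 (contrast 6.56, adjusted p = 3.55e-08). Those of *numr-1* were 9.87, 58.0, 4.04 and 0 tpm in *fog-2* and 0, 34.5, 6.04 and 0 tpm in N2 (contrast 6.16, adjusted p = 1.51e-05). For *hsp-16.1* the contrast was 5.38 (adjusted p = 3.94e-05), with medians of 97.0 and 11.2 tpm at 5 and 100 eggs/μL in *fog-2* and 19.3 and 6.94 tpm in N2, although the highest N2 animal at 100 eggs/μL was at 4119 tpm. In the other direction, the lysozyme gene *lys-4* changed by -0.91 and then 1.78 (contrast -2.70, adjusted p = 0.0163), and *acs-7*, which encodes an acyl-CoA synthetase of ascaroside biosynthesis, by 0.50 and then 2.62 (contrast -2.12, adjusted p = 0.0144).

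**Figure D5:**
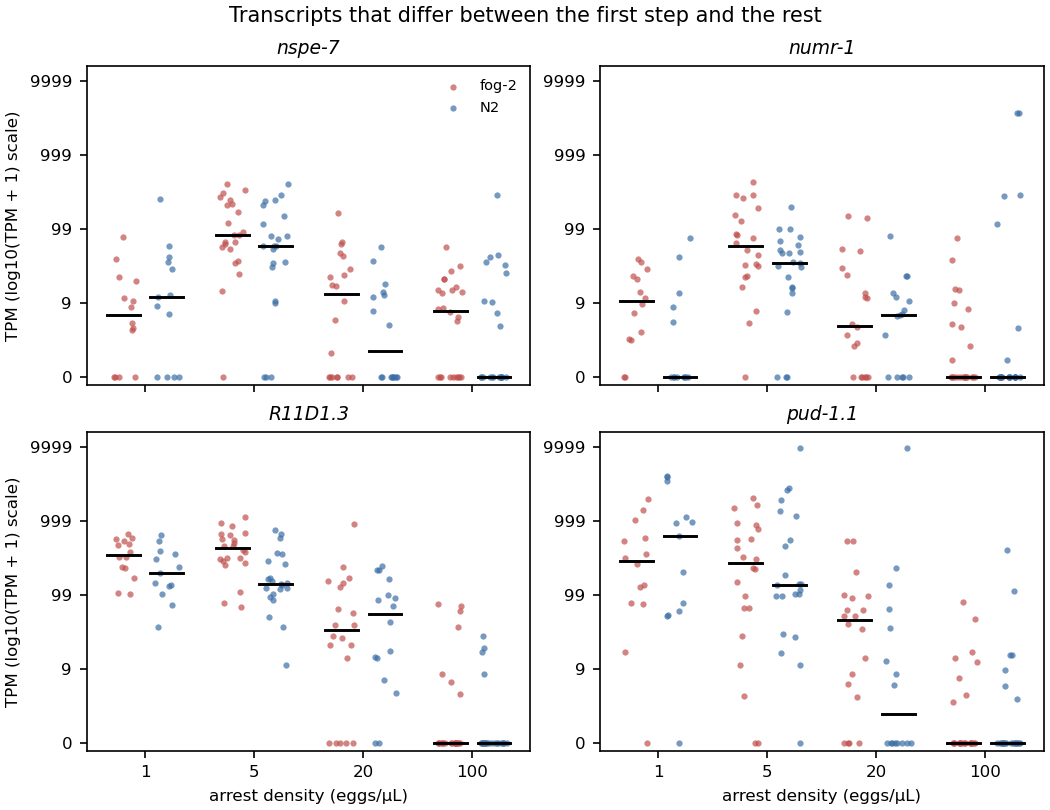
Level in TPM (log10(TPM + 1) scale) of *nspe-7*, *numr-1*, *R11D1.3* and *pud-1.1* in every animal at 1, 5, 20 and 100 eggs/μL, *fog-2* and N2 apart, with bars at the group medians. The medians of *nspe-7* and *numr-1* are highest at 5 eggs/μL, and those of *R11D1.3* go from 434 TPM in *fog-2* and 143 TPM in N2 at 5 eggs/μL to 0 at 100 eggs/μL.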

How the data were processed

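One Smart-Seq2-type library (Nextera kit, not stranded) was made from each single L1. The authors removed ribosomal RNA reads and PCR duplicates and quantified transcripts with RSEM, and deposited the values as TPM for 47639 transcript rows per strain. The processing notes name Bowtie, RSEM and the ce11 build, and versions are not given in the sources used here. Each TPM column sums to 1000000, so depth cannot be read from the deposited values and no interval from counts was given. The aligned reads that the study lists for each animal entered 2 alternatives. Of the columns, 146 matched a single animal by name and 8, all *fog-2* at 1 egg/μL, matched their group only. Row names were taken from RefSeq (46165 rows) and Ensembl WBcel235 (884), and 590 rows had no name.

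Rows that reached 1 TPM in 13 or more of the 71 compared animals were tested on log2(TPM + 1) with limma 3.58.1 in R 4.3.3 (eBayes with a mean-variance trend, strain as a covariate), with Benjamini-Hochberg adjustment over all rows and a threshold of 0.05. In *fog-2*, deviations of animals with the same name digit correlated at 0.31, 0.10 and 0.14 between the densities. Those of unlike digits correlated at -0.26 to 0.18, so only digit 1 stood out. In N2 the values were 0.07, 0.06 and -0.02 for the same digit and -0.09 to 0.04 for unlike digits. The fit of both strains had no block, and blocked values are given where a call changed. The code was tested on simulated data. The fits within each strain, the interaction and the contrast of both steps used the same rows. Numbers of detected rows were compared by permutation in SciPy 1.17.1. Named genes were those of the study text, the 12 largest changes in each direction with a mean of at least 5 TPM and a shared sign in *fog-2* and N2, plus up to 3 rows of each list by adjusted p. Further genes are marked as chosen after their values were seen. The members and lists were chosen with earlier results of these data known. Lists were described by counts and medians, without a set test. A list of mitochondrial DNA genes found no rows by name. Alternatives covered the pseudocount, filters, normalization, covariates, name digits, a block, isoforms, the variance model and the threshold.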

Additional observations from a re-analysis of the deposited data

How the results depend on the processing

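The counts of 158 rows higher and 55 lower depended on the name digits. Without name digit 1, 2 or 3 they were 22 and 17, 100 and 21, and 47 and 8. With means per strain, density and digit in place of animals they were 0 and 0, with 1077 rows at an unadjusted p under 0.05 in limma. An adjusted p under 0.01 left 61 and 19 rows. Quantile normalization gave 97 higher rows, a covariate for detected rows gave 83 lower rows, and a fit with no mean-variance trend gave 32. Apart from the block given below, the other alternatives of this fit gave 111 to 206 higher and 38 to 72 lower rows. In *fog-2* alone (50 and 8), quantile normalization gave 29 and 4, detected rows as a covariate gave 33 lower, and digit means gave 0 and 0. In N2 alone (0 and 0), the detected-rows covariate gave 1 higher and 1 lower row, and a pseudocount of 10 and quantile normalization gave 1 lower row each. For the contrast of steps (77 and 5), quantile normalization gave 50 positive rows, and leaving out the 2 animals that stood apart, an alternative chosen after seeing the data, gave 3 negative ones.

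With the digit within strain as a replicate block the counts were 156 and 34, in *fog-2* 54 and 9, and in N2 0 and 0. Under the block, 5 named genes no longer passed: *ilys-5*, *grd-5*, *clec-67*, *clec-196* and *F36D1.5*. No named gene that passed in that fit or in an alternative changed its direction under any of the alternatives run on the fit of both strains.

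Because each library is 1 larva and weakly expressed genes are often listed at 0, changes below about 10 TPM rest on few animals with a value.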
